A study of Mus musculus with 9 samples.

Results

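The Bcl2 family genes decide whether a cell under stress lives or dies, and ZEB1 signal near 10 of them was followed in mouse breast cancer cells through 72 h of eribulin. The survival genes were Bcl2, Bcl2l1 and Mcl1. The death genes were Bmf, Bcl2l11, Bbc3, Pmaip1 and Bid, which encode BH3-only proteins, and Bax and Bak1, which encode the pore-forming effectors. A ZEB1 peak was taken as theirs when its centre lay inside the gene, or when the nearest boundary of any protein-coding gene within 50 kb belonged to it. This gave 33 of 23623 consensus peaks, 21 at survival genes and 12 at death genes. Peaks are numbered along the chromosome within each gene, and a peak beside a gene is a neighbour of it, not a shown regulator.

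ZEB1 CUT&RUN, in which an antibody-tethered nuclease releases the DNA beside its target, was done on PB3, a breast cancer line from mouse that carries the label Er-/Pr-/Her2-. Eribulin stops microtubules from growing. There were 2 libraries each from cells kept for 24, 48 and 72 h with the drug at 300 nM (cell line label PB3_ERI), and 2 libraries from untreated cells (label PB3-Parental), plus 1 IgG library from untreated cells. The series concerns a therapy-driven return of mesenchymal cells to an epithelial state. Drug and line label change together, so their contributions cannot be told apart, and whether the replicates were grown as separate cultures is not stated. Library totals in peaks ran from 326944 to 765015 after eribulin and were 372896 and 672582 in untreated cells. The 72 h libraries, with 441521 and 326944, and untreated replicate 1 were the shallowest. Spread between libraries was measured as chi-square per degree of freedom, where 1 is pure counting noise. It was 0.931 to 0.965 for the untreated, 24 h and 72 h pairs of replicates, less than counting noise. The 48 h pair gave 1.06, slightly more than noise, and libraries of different groups gave 1.12 to 2.28. Pairs below 1 show no spread between cultures, and the p-values below rest on the spread within pairs. No expression was measured, so the labelled cell type was not checked against its markers.

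Bcl2, Bcl2l1 (the gene of Bcl-xL) and Mcl1 encode proteins that sit on the outer mitochondrial membrane and hold Bax and Bak1 inactive. BH3-only proteins are the alarm of the pathway: once made or released they bind the survival proteins or push Bax and Bak1 directly, the membrane is breached, and cytochrome c sets off the caspases. In drugs that act on microtubules the balance matters in a particular way, because Mcl1 protein is short-lived and is broken down during a long mitotic arrest, and because Bcl2l11 (Bim) and Bmf proteins are held on the motor complexes of the cytoskeleton. ZEB1 is a zinc-finger factor that binds E-box motifs of the form CAGGTG or CAGGTA and is best known as a repressor of epithelial genes.

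Peaks on the start sites could be read as sequence, since RefSeq (build GRCm38.p6) gives promoter windows from 250 bases before to 50 after a start. The table held 16 windows for 9 of the 10 genes, and 9 member peaks lay on 10 of them, from 7 genes. The sets shown are the promoters of Bcl2 and Bbc3, where ZEB1 signal was higher after eribulin, and windows of Mcl1, Bcl2l11 and Bbc3 that hold a ZEB1 motif. Bbc3 window 3, which holds CAGGTG too, is not printed. Each is printed 5′ to 3′ on the strand of its gene, with either ZEB1 motif in capitals, read as CAGGTG (on the other strand the same site reads CACCTG) or as CAGGTA (on the other strand it reads TACCTG).
Bcl2 promoter, chr1:106714241-106714540, minus strand, 145 bases under Bcl2 peak 6: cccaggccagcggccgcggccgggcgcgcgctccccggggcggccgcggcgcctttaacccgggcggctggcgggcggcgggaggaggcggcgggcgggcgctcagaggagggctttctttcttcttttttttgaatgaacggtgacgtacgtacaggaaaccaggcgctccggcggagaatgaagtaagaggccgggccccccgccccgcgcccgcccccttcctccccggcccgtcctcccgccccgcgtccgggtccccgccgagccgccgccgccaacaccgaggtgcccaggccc
Bbc3 promoter window 1, chr7:16309333-16309632, plus strand, 298 bases under Bbc3 peak 1: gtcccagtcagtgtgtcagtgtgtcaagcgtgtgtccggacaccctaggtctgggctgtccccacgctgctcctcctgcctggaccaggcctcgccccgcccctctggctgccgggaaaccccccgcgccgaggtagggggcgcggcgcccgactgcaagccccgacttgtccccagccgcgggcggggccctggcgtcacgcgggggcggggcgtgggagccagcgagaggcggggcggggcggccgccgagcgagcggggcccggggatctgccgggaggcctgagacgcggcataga
Bbc3 promoter window 2, chr7:16310011-16310310, plus strand, under no peak: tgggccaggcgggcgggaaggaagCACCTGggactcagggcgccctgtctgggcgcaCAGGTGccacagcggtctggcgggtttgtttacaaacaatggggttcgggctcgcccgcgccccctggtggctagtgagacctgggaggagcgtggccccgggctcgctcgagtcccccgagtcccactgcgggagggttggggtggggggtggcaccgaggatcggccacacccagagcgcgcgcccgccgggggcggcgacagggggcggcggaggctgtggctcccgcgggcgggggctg
Mcl1 promoter, chr3:95658471-95658770, plus strand, 245 bases under Mcl1 peak 3: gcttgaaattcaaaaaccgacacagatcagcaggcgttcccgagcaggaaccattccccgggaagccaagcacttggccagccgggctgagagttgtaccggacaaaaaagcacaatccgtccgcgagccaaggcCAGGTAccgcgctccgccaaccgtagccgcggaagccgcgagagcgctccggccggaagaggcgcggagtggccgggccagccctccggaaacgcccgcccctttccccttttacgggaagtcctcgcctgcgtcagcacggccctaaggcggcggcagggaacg
Bcl2l11 promoter window 1, chr2:128125788-128126087, plus strand, 195 bases under Bcl2l11 peak 1: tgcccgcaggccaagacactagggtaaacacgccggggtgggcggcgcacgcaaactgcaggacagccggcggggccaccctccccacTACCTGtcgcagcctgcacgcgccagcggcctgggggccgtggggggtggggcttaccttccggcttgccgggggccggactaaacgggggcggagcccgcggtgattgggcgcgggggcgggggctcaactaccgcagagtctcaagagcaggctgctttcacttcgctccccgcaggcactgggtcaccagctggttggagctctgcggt

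Of the 10 windows under a peak, 0 held CAGGTG on either strand and 2 held CAGGTA. These were the Mcl1 window, with CAGGTA from position -115 relative to the start, and Bcl2l11 window 1, with TACCTG from position -162. Among all 32851 RefSeq windows of the same length, 20.2% held CAGGTG, 12.0% held CAGGTA and 29.5% held either. At Bbc3 the window under peak 1 held neither motif, and the part of the peak outside that window was not read. Window 2 held CACCTG from position -226 and CAGGTG from position -193 relative to its start, window 3 held CAGGTG 12 bases after its own, and neither window was under a peak. A match is only a run of letters, the Snail factors bind CAGGTG too, and bases of the peaks that lie away from start sites were not read here.

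ZEB1 signal was higher after eribulin at several peaks of Bcl2 and Bcl2l1, was called at no peak of Mcl1, and gave few calls at the death genes. A change was called when edgeR's quasi-likelihood test gave p below 0.05 after Benjamini-Hochberg adjustment across the 21192 peaks that passed a filter on low counts. Levels are CPM, counts scaled to a common library total in peaks and not to peak length. The filter kept 31 member peaks, 20 of survival genes and 11 of death genes, and left out Bcl2l1 peak 2 and Bmf peak 2. After 24 h, 7 of the 20 survival peaks rose and 0 fell, where 6.44% of all tested peaks rose and 4.61% fell. After 48 h, 5 rose and 0 fell, where 6.09% and 5.41% of all peaks did, and after 72 h, 2 rose and 0 fell, where 6.84% and 5.74% did. Over the mean of the 3 times 5 rose and 0 fell, against 8.27% and 8.53% of all peaks. Called in either direction were 11% of all peaks after 24 h, 11.5% after 48 h, 12.6% after 72 h and 16.8% over the mean. The 11 death peaks gave 0 rises and 2 falls after 24 h, and 1 rise and 1 fall after 48 h, after 72 h and over the mean. A count of 1 in 11 is 9.09%, near the 8.27% and 8.53% of all peaks over the mean. At an unadjusted p below 0.05 edgeR gave 10, 7, 4 and 8 survival and 3, 3, 3 and 5 death peaks in the same order. The share of all tested peaks at that unadjusted threshold was not counted, so unadjusted counts here and below have no background to be read against.

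The median log2 fold change of the survival peaks was 0.36 after 24 h, 0.37 after 48 h and 0.37 after 72 h, and 0.40 over the mean. Death peaks had medians of 0.09, 0.02, 0.03 and -0.04 in the same order, and all tested peaks -0.01, 0.00, 0.00 and -0.01. The times share the untreated libraries, so their values are not independent of each other. The consensus peaks were called in these same libraries, and 8 of the 9 member peaks that rose at some time were absent from the untreated peak list. Bcl2 peaks 3 and 4 and Bcl2l1 peak 6 passed the filter with no untreated library over its limit of 16.7 CPM. Bmf peak 1 passed with both untreated but only 1 of 6 eribulin libraries over it. A difference at these 4 peaks was thus built into their choice. Among the other called peaks, Bcl2 peak 6 and Bcl2l1 peaks 3 and 8 had only 1 untreated library over the limit. They passed only through their eribulin libraries, so their choice leaned towards higher eribulin signal. With DESeq2 only 1 survival peak, Bcl2l1 peak 3, and 0 death peaks passed in any comparison with untreated cells, against an unadjusted DESeq2 p below 0.05 at 5 survival and 2 death peaks over the mean. Leaving out untreated replicate 2 left fewer called survival peaks in all comparisons with untreated cells but that at 72 h, and ended the death calls. Without untreated replicate 1 there were fewer survival calls in every comparison with untreated cells, and the number of death calls fell only at 48 h. Such fits rest on 1 untreated library. Calls over all tested peaks also became fewer in each of these comparisons, so the losses were not limited to member peaks.

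**Figure D1:**
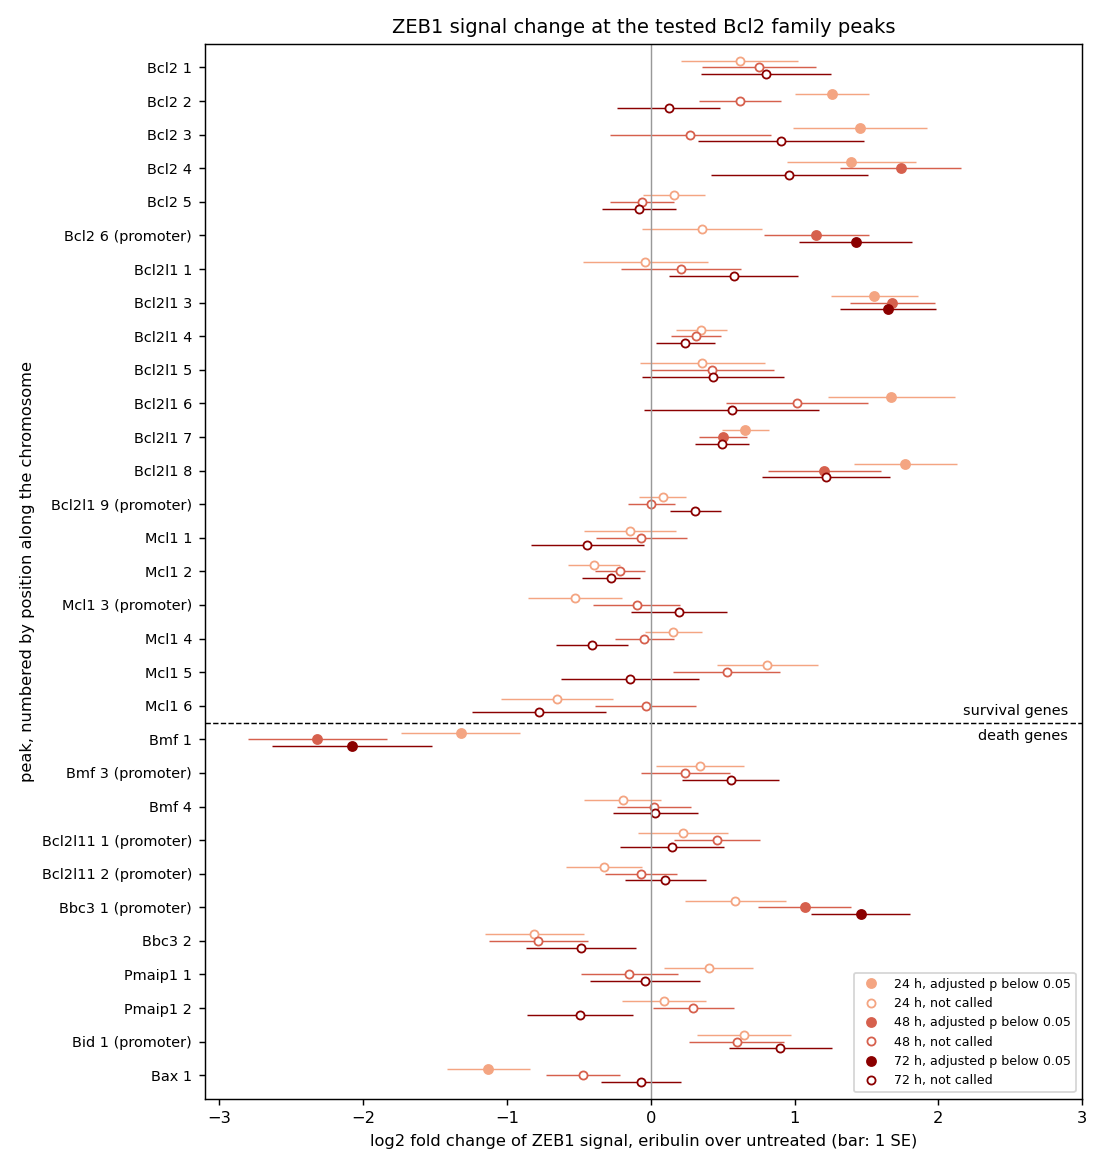
Log2 fold change of ZEB1 signal, eribulin over untreated, at the 31 tested peaks of the Bcl2 family genes after 24, 48 and 72 h, with bars of 1 standard error and filled points where the edgeR adjusted p was below 0.05. Filled points lie to the right at Bcl2 and Bcl2l1, are missing at Mcl1, and lie on both sides of 0 among the death genes.

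Bcl2l1 (NCBI gene 12048, chr2:152758732-152833803), whose product keeps many epithelial and tumour cells alive, carried 9 peaks inside the gene, of which 8 were tested and 4 rose at 1 or more times. The steadiest was peak 3, chr2:152792414-152792912, 41.1 kb after the 5′ end of the gene. Its nearest gene boundary was that of Cox4i2, 27.6 kb away, and Cox4i2 also had the boundary nearest to peaks 1 and 2. Peak 3 held 16.5 and 27.5 CPM untreated, 81.9 and 60.0 CPM at 24 h, 82.0 and 68.4 CPM at 48 h, and 83.2 and 62.7 CPM at 72 h. Every eribulin library was above both untreated ones, and the level was reached by 24 h and held. The log2 fold change was 1.56 (SE 0.300, adjusted p = 0.000121), 1.68 (SE 0.293, adjusted p = 2.19e-05) and 1.65 (SE 0.332, adjusted p = 0.000295) at the 3 times, and 1.63 (SE 0.264, adjusted p = 2.13e-06) over their mean. This call was kept in DESeq2 (adjusted p = 0.00802 over the mean) and without any 1 library. The peak was in all 3 eribulin lists, at a fold over IgG of 7.37, 14.4 and 9.38 by the authors' peak caller, and was absent from the untreated list.

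Bcl2l1 peak 8, chr2:152821997-152822341, 11.6 kb after the 5′ end, held 8.25 and 18.3 CPM untreated, 58.0 and 45.0 CPM at 24 h, 33.1 and 35.9 CPM at 48 h, and 34.7 and 34.5 CPM at 72 h. All 6 eribulin libraries lay above both untreated ones, highest at 24 h. Its log2 fold change was 1.77 (SE 0.357, adjusted p = 0.000242) after 24 h, 1.21 (adjusted p = 0.0297) after 48 h, 1.22 (adjusted p = 0.0531) after 72 h and 1.40 (SE 0.339, adjusted p = 0.00181) over the mean. The step between 24 and 72 h, -0.55 (adjusted p = 0.312), did not pass. Over the mean the call ended without untreated replicate 1 (1.08, adjusted p = 0.0585), and the 48 h call ended without either untreated library (adjusted p = 0.218 and 0.0788) or either 48 h library (0.0889 and 0.0985).

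Its neighbour peak 7, chr2:152820088-152821345, the member peak with the highest CPM, lay 13.1 kb after the 5′ end and was in all 4 lists. It held 129 and 116 CPM untreated, 203 and 181 CPM at 24 h, 179.9 and 161 CPM at 48 h, and 157 and 188 CPM at 72 h. The groups did not overlap, but the fold difference was smaller than at peaks 3 and 8. Log2 fold changes were 0.66 (adjusted p = 0.00329), 0.50 (adjusted p = 0.0338) and 0.49 (adjusted p = 0.0639) at the 3 times and 0.55 (SE 0.144, adjusted p = 0.00382) over the mean. Without untreated replicate 2 no call was left (adjusted p = 0.155 at 24 h, 0.349 at 48 h and 0.223 over the mean), and the 48 h call also ended without untreated replicate 1 (0.0733) or 48 h replicate 1 (0.227).

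Bcl2l1 peak 6, chr2:152811390-152811614, 22.3 kb after the 5′ end, was called after 24 h alone, at 1.67 (SE 0.444, adjusted p = 0.00655), with 37.5 and 27.3 CPM against 13.8 and 7.64 CPM untreated. It was near the untreated level at 72 h, with 13.9 and 15.7 CPM, yet the step between 24 and 72 h (-1.11, adjusted p = 0.122) did not pass. Those untreated values are 5 counts in each library, and the call ended without untreated replicate 2 (adjusted p = 0.279) or 24 h replicate 1 (0.0769).

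The rest of Bcl2l1 did not pass at any time. Peak 9, chr2:152830481-152831823, covers a pair of RefSeq promoter windows and held between 132 and 189.5 CPM after eribulin and 165 and 136 CPM in untreated cells (log2 fold change over the mean 0.13, adjusted p = 0.545). The calls at this gene thus lay at peaks away from the start sites under peak 9, though the difference between those peaks was not tested. Peak 4, 27.7 kb in, held 113 to 145 CPM after eribulin and 99.0 and 113 CPM untreated (0.30, adjusted p = 0.164), and peaks 1 and 5 changed by 0.25 and 0.41 with adjusted p = 0.675 and 0.485. Peak 2 was too low to test, at 6.82 to 18.8 CPM after eribulin and 11.0 and 13.8 CPM untreated. Summed over all 9 peaks, Bcl2l1 carried between 624 and 728 CPM after eribulin and 489.5 and 463 CPM in untreated cells, 1.40 times as much on average.

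**Figure D2:**
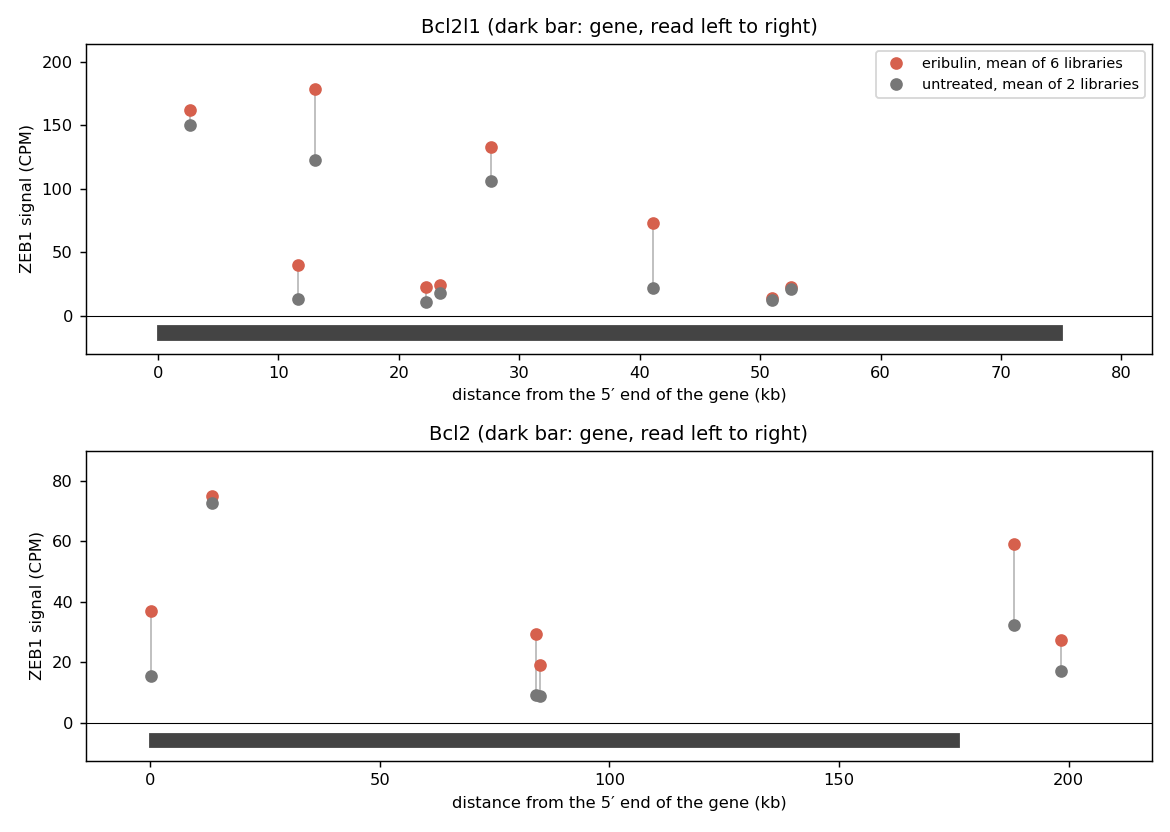
ZEB1 signal (CPM) of each peak of Bcl2l1, upper panel, and Bcl2, lower panel, against distance from the 5′ end of the gene in kb, with the mean of the 6 eribulin libraries and of the 2 untreated libraries joined by a line. At Bcl2l1 the eribulin point stands well above the untreated one 13.1 and 41.1 kb into the gene, while the pair of points nearest the 5′ end is close together. At Bcl2 the pair at the 5′ end is apart and the pair 13.5 kb in almost coincides.

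Bcl2 (NCBI gene 12043, chr1:106538176-106714290), which encodes the founding survival protein, had 6 tested peaks, of which 3 rose after 24 h, 2 after 48 h, 1 after 72 h and 2 over the mean. Peak 6, chr1:106714003-106714385, lies on the promoter whose sequence is printed above. It held 8.25 and 22.9 CPM untreated, 17.1 and 27.3 CPM at 24 h, 41.0 and 37.6 CPM at 48 h, and 41.6 and 56.5 CPM at 72 h. The 24 h libraries overlapped the untreated ones and the later ones did not. The log2 fold change was 0.36 (adjusted p = 0.636), 1.15 (adjusted p = 0.0253) and 1.43 (SE 0.394, adjusted p = 0.00951) at the 3 times, and 0.98 (SE 0.331, adjusted p = 0.0294) over the mean. The step between 24 and 72 h, 1.07, narrowly missed the threshold (adjusted p = 0.0542). Untreated replicate 1 had 3 counts here, and without it no call was left (adjusted p = 0.246 at 48 h, 0.103 at 72 h and 0.327 over the mean). Leaving out either 48 h library (0.136 and 0.0515), 72 h replicate 2 (0.107 at 72 h and 0.0587 over the mean) or 24 h replicate 2 (0.102 over the mean) also ended a call.

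Bcl2 peak 2, chr1:106526052-106526345, 12 kb beyond the 3′ end of the gene, had the opposite course. It held 22.0 and 42.8 CPM untreated, 88.7 and 81.9 CPM at 24 h, 51.6 and 58.2 CPM at 48 h, and 46.2 and 28.2 CPM at 72 h. Signal was highest at 24 h and was back within the untreated range in 1 of the 72 h libraries. The log2 fold change was 1.26 (SE 0.258, adjusted p = 0.000314) after 24 h, 0.62 (adjusted p = 0.146) after 48 h and 0.13 (adjusted p = 0.860) after 72 h. The 72 h libraries were lower than the 24 h libraries by test (-1.13, SE 0.279, adjusted p = 0.00853), a step at which 2.39% of all tested peaks fell and 2.32% rose. That step did not pass without 72 h replicate 2 (-0.87, adjusted p = 0.156). The neighbouring peak 1, 22.3 kb beyond the end, was not called (0.73 over the mean, adjusted p = 0.146).

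A pair of small peaks sits in the body of Bcl2, with centres 84.8 and 84.1 kb from its 5′ end. Peak 4, chr1:106630042-106630323, held 2.75 and 15.3 CPM untreated, 32.4 and 25.9 CPM at 24 h, 30.4 and 44.5 CPM at 48 h, and 20.8 and 22.0 CPM at 72 h, so every eribulin library was above both untreated ones. It was called after 24 h (1.40, adjusted p = 0.0280), after 48 h (1.74, SE 0.421, adjusted p = 0.00284) and over the mean (1.37, SE 0.403, adjusted p = 0.0112). The lower untreated library had 1 count, and without it the log2 values were 0.90, 1.23 and 0.86 and none passed (adjusted p = 0.263, 0.0734 and 0.210). The 24 h call also ended without either 24 h library (0.142 and 0.0566). Peak 3, chr1:106629411-106629605, was called after 24 h alone (1.45, adjusted p = 0.0277), at 22.2 and 31.4 CPM against 5.50 and 12.2 CPM untreated. Its call ended without either untreated library (adjusted p = 0.177 and 0.0997) or 24 h replicate 2 (0.266). Peak 5, 13.5 kb into the gene and the strongest of Bcl2, held 53.3 to 92.1 CPM after eribulin and 66.0 and 79.5 CPM untreated (0.01, adjusted p = 0.989). Over all 6 peaks Bcl2 carried 207 to 276 CPM after eribulin and 124 and 188 CPM untreated, a ratio of means of 1.58.

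Mcl1 (NCBI gene 17210, chr3:95656944-95663179), the survival gene whose protein turns over fastest, gave no call. None of its 6 tested peaks passed in edgeR or DESeq2 in any of the 7 comparisons (unadjusted edgeR p below 0.05 at 2 of them after 24 h and at 0 over the mean), and 5 of the 6 had a log2 value below 0 over the mean (median -0.18). The strongest, peak 2 at chr3:95650505-95651146, 6.12 kb before the 5′ end of the gene, held 93.8 to 116 CPM after eribulin and 113 and 144 CPM untreated (-0.30, SE 0.150, adjusted p = 0.166). Peak 3, on the promoter that holds CAGGTA, held 23.2 to 50.8 CPM after eribulin and 46.8 and 33.6 CPM untreated (-0.14, adjusted p = 0.755). Summed over 6 peaks the gene carried 248 to 328 CPM after eribulin and 338 and 344 CPM in untreated cells, so all 6 eribulin libraries were below both untreated ones, at 0.892 times their mean. All 6 Mcl1 peaks were in the untreated peak list, peaks 1 and 6 in that list alone. At Bcl2 only peak 5 was in the untreated list, and at Bcl2l1 only peaks 1, 4, 7 and 9. The summed signal of each survival gene carries that choice of peaks. The difference between Mcl1 and the other survival genes was not tested.

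**Figure D3:**
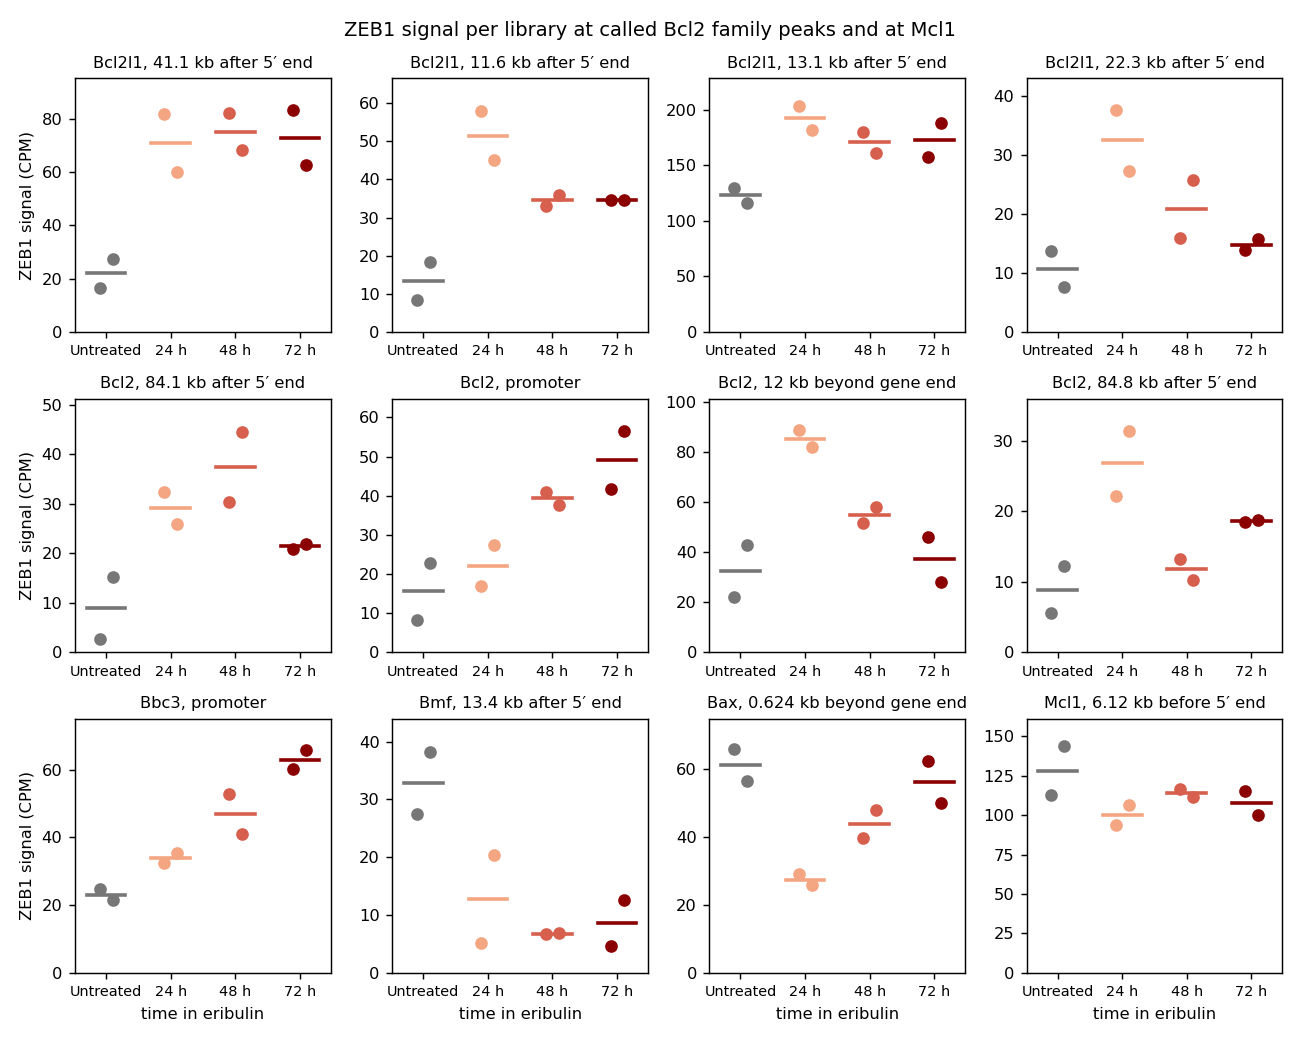
ZEB1 signal (CPM) in each library, points, with the mean of each group, line, for untreated cells and 24, 48 and 72 h of eribulin, at the 11 member peaks called in at least 1 comparison and at the strongest Mcl1 peak. Bcl2l1 at 41.1 kb is high at all 3 times, Bcl2 beyond the gene end and Bcl2l1 at 22.3 kb are highest at 24 h, and the promoter peaks of Bcl2 and Bbc3 are highest at 72 h.

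Among the BH3-only genes, Bbc3 and Bmf had called peaks, in opposite directions. Bbc3 (NCBI gene 170770, chr7:16308398-16318334) encodes Puma, the p53-induced killer that binds every survival protein of the family. Its peak 1, chr7:16309221-16309630, covers nearly the whole of promoter window 1 printed above, and held 24.8 and 21.4 CPM untreated, 32.4 and 35.5 CPM at 24 h, 52.9 and 41.1 CPM at 48 h, and 60.1 and 65.9 CPM at 72 h. Every eribulin library was above both untreated ones, and the group means stood in the order of time. The log2 fold change was 0.59 (adjusted p = 0.296), 1.07 (adjusted p = 0.0188) and 1.46 (SE 0.342, adjusted p = 0.00205) at the 3 times and 1.04 (SE 0.286, adjusted p = 0.00630) over the mean. The step between 24 and 72 h (0.87, adjusted p = 0.0641) did not pass. Without untreated replicate 2 no call was left (adjusted p = 0.266 at 48 h, 0.0839 at 72 h and 0.243 over the mean), and the 48 h call also ended without untreated replicate 1 (0.0515) or 48 h replicate 1 (0.220).

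Bbc3 peak 2, chr7:16312817-16313195, further into the gene, lay the other way, at 15.3 to 31.4 CPM after eribulin and 35.8 and 38.2 CPM untreated. All 6 eribulin libraries were below both untreated ones, and the change did not pass (-0.69, SE 0.287, adjusted p = 0.0854). This peak was in the untreated list alone, and peak 1 was in the 3 eribulin lists alone.

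Bmf (NCBI gene 171543, chr2:118528757-118549686) encodes a BH3-only protein that is kept on actin-based motors and freed when cells lose their anchorage. Its peak 1, chr2:118536187-118536425, 13.4 kb after the 5′ end, held 27.5 and 38.2 CPM untreated, 5.12 and 20.5 CPM at 24 h, 6.61 and 6.84 CPM at 48 h, and 4.62 and 12.5 CPM at 72 h. Every eribulin library was below both untreated ones. It was the only member peak that fell at all 3 times, by 1.32 (adjusted p = 0.0241), 2.32 (SE 0.484, adjusted p = 0.000489) and 2.08 (SE 0.556, adjusted p = 0.00740) on the log2 scale, and by 1.90 (SE 0.377, adjusted p = 0.000118) over the mean. The eribulin values are 2 to 15 counts, and 10 and 25 counts stand behind the untreated ones. Without untreated replicate 2 no call was left (adjusted p = 0.409, 0.103, 0.169 and 0.127), and the 24 h and 72 h calls ended without 24 h replicate 1 (0.317) and 72 h replicate 1 (0.186).

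The 2 other tested peaks of Bmf were not called, and no difference between its peaks was tested. The promoter peak 3 held 34.4 to 59.6 CPM after eribulin and 27.5 and 36.7 CPM untreated (0.38, adjusted p = 0.335). Peak 4, 5.21 kb before the 5′ end and the strongest, held 39.6 to 60.1 CPM after eribulin and 57.8 and 48.9 CPM untreated (-0.05, adjusted p = 0.913). Peak 2 was too low to test, at 5.12 to 16.4 CPM after eribulin and 19.3 and 7.64 CPM untreated.

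Bcl2l11, Pmaip1 and Bid gave no call in any comparison by edgeR or DESeq2 (unadjusted edgeR p below 0.05 over the mean at 0, 0 and 1 peaks). Bcl2l11 (NCBI gene 12125) encodes Bim, which binds all the survival proteins and is held on the dynein motor of microtubules. Both of its peaks lay on promoter windows, changed by 0.28 (adjusted p = 0.517) and -0.10 (adjusted p = 0.802) over the mean, and also lie within 1133 bp of a boundary of Acoxl. The centre of Bcl2l11 peak 1 lies inside Acoxl. Pmaip1 (NCBI gene 58801) encodes Noxa, the partner that sends Mcl1 to destruction, and its 2 peaks, 7.51 and 12.5 kb outside the gene, changed by 0.07 (adjusted p = 0.891) and -0.04 (adjusted p = 0.943). Bid (NCBI gene 12122) encodes the link from death receptors to mitochondria. Its promoter peak held 39.2 and 40.9 CPM at 24 h, 35.7 and 42.8 CPM at 48 h, and 57.8 and 34.5 CPM at 72 h, against 24.8 and 26.0 CPM untreated. All 6 eribulin libraries were above both untreated ones, and the change missed the threshold (0.72, SE 0.284, adjusted p = 0.0691), which it passed only without 72 h replicate 2 (adjusted p = 0.0467).

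The effectors were thinly covered. Bak1 (NCBI gene 12018, chr17:27019812-27028627) had no peak by the rule, and the closest consensus peak, chr17:27038382-27038751, lay 9939 bp from it and 2188 bp from a boundary of Ggnbp1. Bax (NCBI gene 12028, chr7:45461695-45466903) had 1, chr7:45460899-45461244, 0.624 kb beyond its 3′ end and 1185 bp from Ftl1. It held 66.0 and 56.6 CPM untreated, 29.0 and 25.9 CPM at 24 h, 39.7 and 47.9 CPM at 48 h, and 62.4 and 50.2 CPM at 72 h. Signal was low at 24 h and overlapped the untreated libraries by 72 h. The log2 fold change was -1.13 (SE 0.288, adjusted p = 0.00465) after 24 h, -0.47 (adjusted p = 0.242) after 48 h and -0.07 (adjusted p = 0.911) after 72 h, and the 72 h libraries were higher than the 24 h ones by test (1.06, SE 0.317, adjusted p = 0.0335). The 24 h call ended without untreated replicate 2 (adjusted p = 0.0582) or 24 h replicate 2 (0.0781). The step between times ended without any 1 of the 4 libraries it compares (adjusted p = 0.0928, 0.169, 0.342 and 0.0811).

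No member peak was called between 24 and 48 h, where 0.755% of all tested peaks were (0.222% higher and 0.533% lower at 48 h), or between 48 and 72 h, where 0.0378% were (0.0283% higher and 0.00944% lower at 72 h). At an unadjusted edgeR p below 0.05 there were 4 survival and 1 death peaks in the first step and 0 and 1 in the second, and DESeq2 made 0 calls over all peaks in either. Between 24 and 72 h only Bcl2 peak 2 and the Bax peak passed, where 4.71% of all peaks did.

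Promoter peaks and other peaks of the family were also counted apart, by overlap with a RefSeq window. Over the mean 8.27% of all tested peaks rose and 8.53% fell. Of the 3 tested survival promoter peaks 1 rose over the mean (Bcl2) and 0 fell, and of the 17 other survival peaks 4 rose and 0 fell, with medians of 0.13 and 0.41. Of the 5 tested death promoter peaks 1 rose (Bbc3) and 0 fell, and of the 6 other death peaks 0 rose and 1 fell (Bmf), with medians of 0.38 and -0.30. Across the consensus peaks 23.8% lay on a promoter window. These groups are small and no difference between them was tested.

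Counting libraries rather than tests, 5 of 20 survival peaks (25.0%) had every eribulin library above both untreated ones and 0 had every one below. They were Bcl2 peak 4 and Bcl2l1 peaks 3, 6, 7 and 8. Of these, only Bcl2l1 peak 7 had both untreated libraries over the filter limit of 16.7 CPM. The others passed that filter only through eribulin libraries, so their choice leaned towards this order and the 25.0% carries it. Of the 11 death peaks, 2 lay wholly above (Bbc3 peak 1 and Bid) and 2 wholly below (Bmf peak 1 and Bbc3 peak 2), 18.2% in each direction. Bmf peak 1 passed the filter only through the untreated libraries. Among all tested peaks 12.7% lay wholly above and 12.5% wholly below. Summed over all 21 survival peaks, tested or not, the libraries held 952 and 995 CPM untreated, 1323 and 1232 CPM at 24 h, 1188 and 1244 CPM at 48 h, and 1227 and 1104 CPM at 72 h. All 6 eribulin libraries exceeded both untreated ones, with a mean of 1219.7 ± 71.9 CPM (SD, n = 6) after eribulin. The 12 death peaks summed to 437 ± 35.1 CPM (SD, n = 6) after eribulin and to 468 and 423 CPM untreated, which overlap. The ratio of the survival sum to the death sum was 2.04 and 2.35 in untreated cells and 3.46 and 2.91 after 24 h of eribulin. It was 2.68 and 2.84 after 48 h and 2.50 and 2.48 after 72 h, so all 6 eribulin libraries lay above both untreated ones. The peaks were called in these same libraries, and 11 of 21 survival but 10 of 12 death peaks were in the untreated list. The sums and their ratio carry that choice of peaks, and the difference between survival and death genes was not tested.

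**Figure D4:**
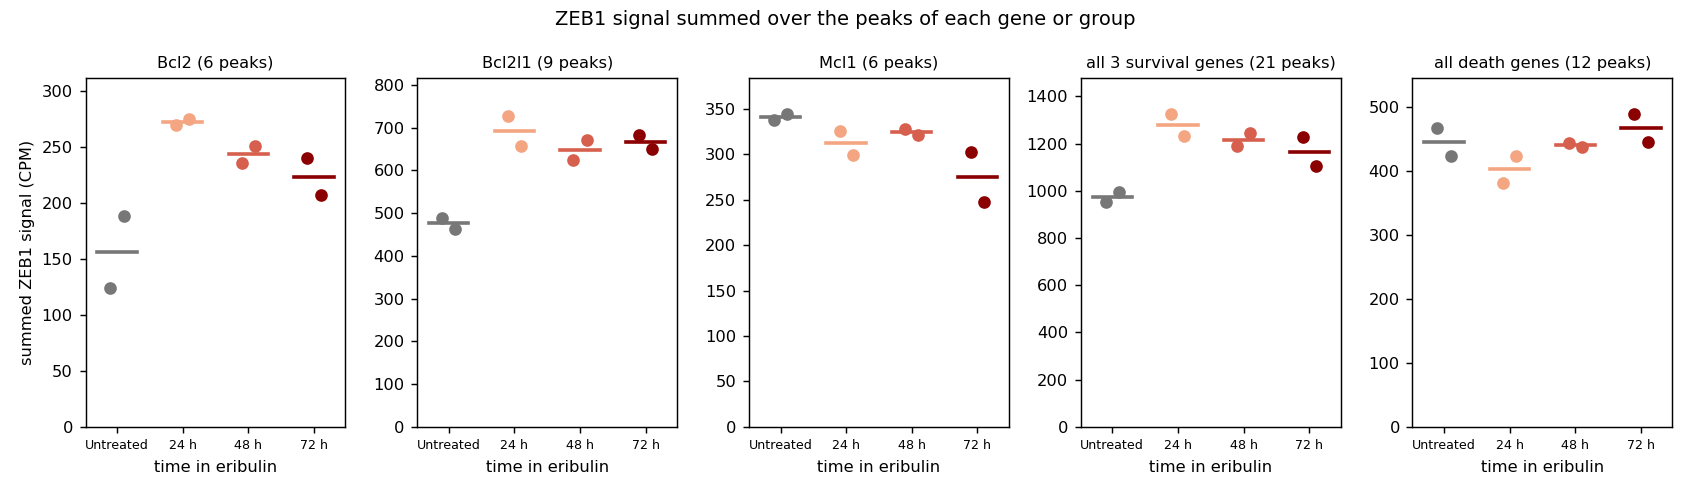
ZEB1 signal summed over all peaks of Bcl2, Bcl2l1, Mcl1, the 3 survival genes and the death genes (CPM), with a point per library and a line at the mean of each group, for untreated cells and 24, 48 and 72 h of eribulin. Eribulin libraries lie above the untreated ones at Bcl2, Bcl2l1 and the survival sum, below them at Mcl1, and among them for the death sum.

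The authors' peak lists, 1 per group and so without replicates, gave a different view of presence. Lists held 15 of 21 survival and 8 of 12 death peaks after 24 h, 14 survival and 9 death peaks after 48 h and 11 survival and 7 death peaks after 72 h, and the untreated list held 11 survival and 10 death peaks. Of all consensus peaks 63.0%, 60.2% and 51.6% were in the 24, 48 and 72 h lists and 78.7% in the untreated list. Thus 1 of the 9 peaks that rose at some time, Bcl2l1 peak 7, was in the untreated list, and both peaks that fell at some time, Bmf peak 1 and the Bax peak, were in it. The peak caller's fold over IgG had medians over member peaks of 8.03, 8.43 and 6.87 in the 24, 48 and 72 h lists and 7.03 in the untreated list, against 7.43, 8.92, 6.82 and 7.14 over all peaks of each list. The largest was 19.2, at Bcl2l1 peak 4 in the 48 h list. Per kb of peak, Bcl2 peak 5 held the most, 199.7 CPM per kb averaged over 8 libraries, and Bcl2l1 peak 4 held 198 CPM per kb, and Mcl1 peak 6 the least at 57.9 CPM per kb.

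Wider lists of the death pathway are read against the 8.27% of all tested peaks that rose and the 8.53% that fell over the mean. Peaks entered these lists only by the nearest protein-coding gene boundary within 50 kb. Unlike for the members, a peak inside a listed gene but nearer to another gene's boundary was left out. Of 15 tested peaks near 10 other Bcl2 family genes, 3 rose over the mean and 0 fell, with a median of 0.07. They lay beside Bnip3 (0.75, SE 0.229, adjusted p = 0.0152) and Bnip3l (0.59, SE 0.218, adjusted p = 0.0472), whose products mark mitochondria for removal, and Bad (0.71, SE 0.264, adjusted p = 0.0484), a BH3-only gene whose peak has its centre inside Gpr137. At Bnip3 the eribulin libraries held 52.9 to 78.1 CPM and the untreated ones 41.3 and 38.2 CPM.

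Downstream, in 21 tested peaks of the caspase and mitochondrial machinery, 2 rose and 2 fell, with a median of 0.07. Peaks rose at Casp6, an executioner caspase (1.98, SE 0.542, adjusted p = 0.00608), with 15.3 to 25.4 CPM after eribulin against 0 and 7.64 CPM in untreated cells, and at Diablo, whose product frees caspases from their inhibitors (0.89, SE 0.299, adjusted p = 0.0300). Of 19 peaks near caspase inhibitors and death receptors 1 rose and 0 fell, with a median of 0.24. That was a peak inside Cflar, which encodes the brake on caspase 8 (1.73, SE 0.432, adjusted p = 0.00245), with 22.2 to 34.5 CPM after eribulin and 11.0 and 6.11 CPM untreated. At these Casp6 and Cflar peaks both untreated values lay under the filter limit of 16.7 CPM. Both peaks thus passed only through eribulin libraries, and a rise was built into their choice.

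Upstream, in 35 tested peaks near regulators such as Trp53, Foxo3 and Jun, 0 rose and 3 fell over the mean, with a median of -0.12. A peak 1538 bp outside Jun, an AP-1 gene of the stress kinase pathway, fell by 2.39 (SE 0.544, adjusted p = 0.000836), at levels of 22.9 CPM or less in every library. All its eribulin values lay under the filter limit of 16.7 CPM, so it passed only through the untreated libraries and a fall was built into its choice. Another peak beside the gene fell by 0.76 (SE 0.154, adjusted p = 0.000161). The remaining fall was beside Myc, a growth gene that primes cells for death (-0.94, SE 0.318, adjusted p = 0.0301). These lists describe peaks near the family's neighbours in the pathway and were not tested as groups. In the order given, 20.0%, 9.52%, 5.26% and 0% of their tested peaks rose over the mean, against 8.27% of all. Falls numbered 0, 2, 0 and 3, where 8.53% of all tested peaks fell.

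As a description of likeness, the Bcl2l1 peak with the highest CPM, peak 7, was set against 8277 peaks assigned to other genes with at least the median CPM. Over the 8 libraries its log2 CPM followed most closely those of peaks assigned to Nrf1 (Pearson r = 0.982), Dtx4 (0.976) and Fchsd1 (0.975), where the libraries share their depth and groups.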

How the data were processed

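The deposited table gives raw counts per consensus peak for 8 ZEB1 libraries, whole numbers that the authors did not scale. Of the deposited peak lists, made 1 for a group, the fold against IgG and the −log10 q-value were used, and the names in them say replicate 1 against IgG at a false discovery rate threshold; what part replicate 2 had is not stated. The submitters' processing notes name MACS2 2.1.1, Bowtie2 2.2.6, featureCounts, cutadapt 2.4, bedtools 2.30.0 and Picard with mm10 (GRCm38), and the sources used here give no settings. Per the labels, the assay was a CUTANA CUT&RUN kit with paired reads of 76 bp, although the sample descriptions speak of Tn5. Coverage tracks and the merged region list were not used here.

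Each peak's counts entered edgeR 4.0.16 under R 4.3.3 (filterByExpr by group, TMM factors 0.9936 to 1.009, robust quasi-likelihood F-test, 1 mean per group over all 8 libraries, 4 residual degrees of freedom). The filter kept 21192 of 23623 peaks (89.7%). Comparisons were 24, 48 and 72 h and their mean against untreated, and each time against each other. SE is that of the fitted log2 fold change, and a p-value covers no more than the spread among these libraries, which may be technical. CPM are counts over the TMM-adjusted total. No added control DNA was used here, so changes are relative to the other peaks. Gene boundaries came from the NCBI GRCm38.p6 table, which gives no exons, so exon and intron were not told apart. DESeq2 1.42.0, other scaling, no filter, thinning to 326944 counts, the replicate block, assignment rules and leaving out each library were alternatives, and summing the pairs of untreated, 24 h and 72 h was added after seeing the data. A peak is named if called in any of the 7 comparisons or if it is its gene's strongest by mean CPM. Genes of the wider pathway lists are named if called over the mean, at most 4 per list by size of change. The peaks that fell in the list of the caspase and mitochondrial machinery are not reported here by name. The members and lists were chosen with earlier results of these data known.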

Additional observations from a re-analysis of the deposited data

Results flagged for a closer look

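A pair of member peaks changed between treatment times by a test of the difference itself, where 4.71% of all tested peaks were called between 24 and 72 h. Bcl2 peak 2, beyond the 3′ end of the gene, was lower at 72 h than at 24 h (log2 difference -1.13, edgeR adjusted p = 0.00853), with 46.2 and 28.2 CPM at 72 h against 88.7 and 81.9 CPM at 24 h. The Bax peak was higher at 72 h than at 24 h (1.06, edgeR adjusted p = 0.0335), with 62.4 and 50.2 CPM at 72 h against 29.0 and 25.9 CPM at 24 h. DESeq2 called neither. The Bax step ended without any 1 of the 4 libraries it compares (adjusted p = 0.0928, 0.169, 0.342 and 0.0811), and the Bcl2 step without 72 h replicate 2 (adjusted p = 0.156).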

How the results depend on the processing

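DESeq2 called far fewer peaks. Over all peaks at 24, 48 and 72 h and over the mean it gave 86, 76, 112 and 227, where edgeR gave 2341, 2437, 2666 and 3559, and between times (48 h against 24 h, 72 h against 48 h, 72 h against 24 h) 0, 0 and 6, where edgeR gave 160, 8 and 999. Among survival peaks it called 1 in each comparison with untreated and 0 between 24 and 72 h, and among death peaks 0 throughout; 17 of 39 named values had no DESeq2 adjusted p. Thinned libraries gave 781, 785, 1440 and 1653 peaks and 13, 2 and 437 between times; survival counts were then 4 and 2 at 24 and 48 h, death counts 1 in each comparison with untreated, and both 0 between 24 and 72 h. Leaving out 1 library gave 508 to 2515, 517 to 2553, 713 to 2870 and 663 to 3507 peaks, and 17 to 223, 0 to 20 and 208 to 1135 between times. Survival counts then ran from 4 to 7, 1 to 5, 1 to 2 and 2 to 6 and death counts from 0 to 2, 0 to 2, 0 to 2 and 0 to 3, and between 24 and 72 h from 0 to 2 and 0 to 1. Without filter or with DESeq2 size factors no count moved by over 1.5 times. Fitting only the groups compared gave 4 survival peaks at 72 h, 2 between 24 and 72 h, and 5 peaks in all between 48 and 72 h. Summed pairs, chosen after seeing the data, gave 83, 2 and 644 peaks between times and 0 death peaks between 24 and 72 h. With peaks inside genes only, 1 death peak was called at 24 h, and none of the survival or death peaks between 24 and 72 h (0 and 0); within 10 kb the survival count there was 0. The replicate block gave 2 survival peaks between 24 and 72 h and moved no other count by over 1.5 times; differences between same-numbered libraries correlated at -0.0302 to 0.001 over 6 pairs of groups, so the numbers do not show a pairing. Under the block Bcl2 peak 5 changed by -0.0126 over the mean, and with DESeq2 size factors by -0.00068, where it was 0.01 and uncalled; without 1 library it ranged from -0.13 to 0.19, Bmf peak 4 from -0.189 to 0.0332, Bcl2l11 peak 2 from -0.359 to 0.0692 and Pmaip1 peak 2 from -0.232 to 0.0796, none called. In the peak lists, an overlap of at least 0.5 of the consensus peak left 4 death peaks at 24 h and 4 at 48 h, and a −log10 q of at least 5 left 7 survival peaks in the untreated list. The causes were not tested. With 10 to 24 counts in a median peak, small changes at low peaks were not detectable.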
